A study of Mus musculus with 15 samples.

Results

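The genes described here are the interleukins and the interleukin receptors of the mouse, taken as every gene whose name on the array is Il followed by a number and then only letters or digits. The rule found 82 genes with 148 probes, and 51 of them were among the 22344 genes of the array that could be tested. The tissue was mammary tumour that had arisen without induction in MMTV-PyMT transgenics, taken at 20 weeks of age. In these mice the mouse mammary tumour virus promoter drives the polyoma middle T oncogene mainly in mammary epithelium, and every mouse of both groups carried this transgene. The 7 Wsh tumours came from mice that carry the W-sh allele of Kit, an inversion next to this receptor tyrosine kinase gene, and whose adults have no mast cells. The 8 B6 tumours came from mice on the C57BL/6 background without that allele. The comparison asks how tumours grown without mast cells differ, but mast cell loss, the Kit allele itself and any other DNA that differs between the mice cannot be told apart by the design. Each sample was 1 tumour on 1 array, and the labels leave unsaid whether any mouse gave more than 1 tumour, so each p-value rests on the spread between arrays, which may be partly technical.

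Interleukins are secreted proteins by which leukocytes, epithelium and stroma signal to each other, and most act through receptors of several chains shared between family members. The chain encoded by Il2rg serves the receptors of interleukins 2, 4, 7, 9, 15 and 21, and the chain encoded by Il6st serves the interleukin 6 group. The interleukin 1 group is made mainly by macrophages, neutrophils and injured epithelium and signals through MyD88, while most other interleukins signal through JAK kinases and STAT factors. In tumours these transcripts come largely from infiltrating leukocytes, while some receptor chains are also made by the carcinoma cells.

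Values are log2 processed signals minus the log2 of the array's own 75th percentile, and each probe is compared only with itself between arrays. Kit lay between 0.30 and 1.91 (median 1.14) on the Wsh arrays, against 2.52 to 4.40 (median 3.81) on the B6 arrays. The groups did not overlap, and the difference was -2.68 (SE 0.29, limma adjusted p = 0.000214). All 6 luminal epithelium markers, among them Krt8 and Epcam, were well above background on all 15 arrays. Of 6 mast cell markers 5 were tested and all 5 lay below 0, with 2 called lower in Wsh, and their summed linear level ran from 0.427 to 1.10 in Wsh and from 1.02 to 12.1 in B6. Skeletal muscle markers stood apart on 5 arrays, Wsh replicates 1, 3, 4 and 5 and B6 replicate 4. For members under the rule for named genes, set out with the processing, differences that moved by more than 1.5 times without those arrays are given together after the families. The arrays lay on 2 slides that each held both groups.

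No interleukin or receptor gene passed the test between Wsh and B6 tumours. With limma over all genes, 0 of the 51 tested members had an adjusted p below 0.05, where 0.38% of all genes tested did. At an unadjusted p below 0.05 there were 2 members, Il1b and Il10ra, both higher in Wsh, or 3.92% of those tested. The background was 10.7% of all genes for either direction and 3.79% for genes higher in Wsh. The members' share was below the first and near the second. The groups did not overlap in 0 of 51 members, against 0.367% of all genes. The count called stayed at 0 in every one of the 31 other settings and left-out arrays that were run.

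The differences of the members lay more often above 0 than those of the whole array. The estimate was positive for 36 of 51 members (70.6%) and for 42.2% of all genes, and the median difference was 0.13 for the members and -0.04 for all genes. Receptor chains had the larger shift, with 23 of 30 above 0 and a median of 0.19. The 14 tested ligands had a median of 0.05, and the 6 tested inhibitors and decoy receptors a median of -0.005. The estimates of T cell and macrophage markers lay mostly on the same side, but so did those of several other lists. These were NK cells (5 of 5 tested above 0), B and plasma cells (6 of 6), neutrophils (4 of 5) and adipocytes (4 of 5). Skeletal muscle (5 of 5) and basal epithelium (4 of 4) were on that side too, and endothelium was mixed (3 of 5). Those of eosinophils (0 of 3 tested above 0, median -0.33) and mast cells (0 of 5, median -4.73) were not. Nor were fibroblasts (0 of 5), luminal epithelium (0 of 6) and keratinocytes (1 of 3). T cell markers lay above 0 in 7 of 8 genes (median difference 0.71, 0 called), and macrophage markers in 8 of 8 (median 0.31, 0 called). With the T cell marker mean as a covariate 26 of 51 members lay above 0 and their median was 0.004, and with the macrophage marker mean 26 did and the median was 0.0006. With the neutrophil marker mean 34 lay above 0 and the median was 0.076. Of the members, 15 were themselves called as correlated with the T cell mean and 16 with the macrophage mean, as given below. Whether cell content accounts for the shift of the members was not tested. In bulk tumour RNA, fewer cells of a type and less RNA per cell cannot be told apart.

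**Figure D1:**
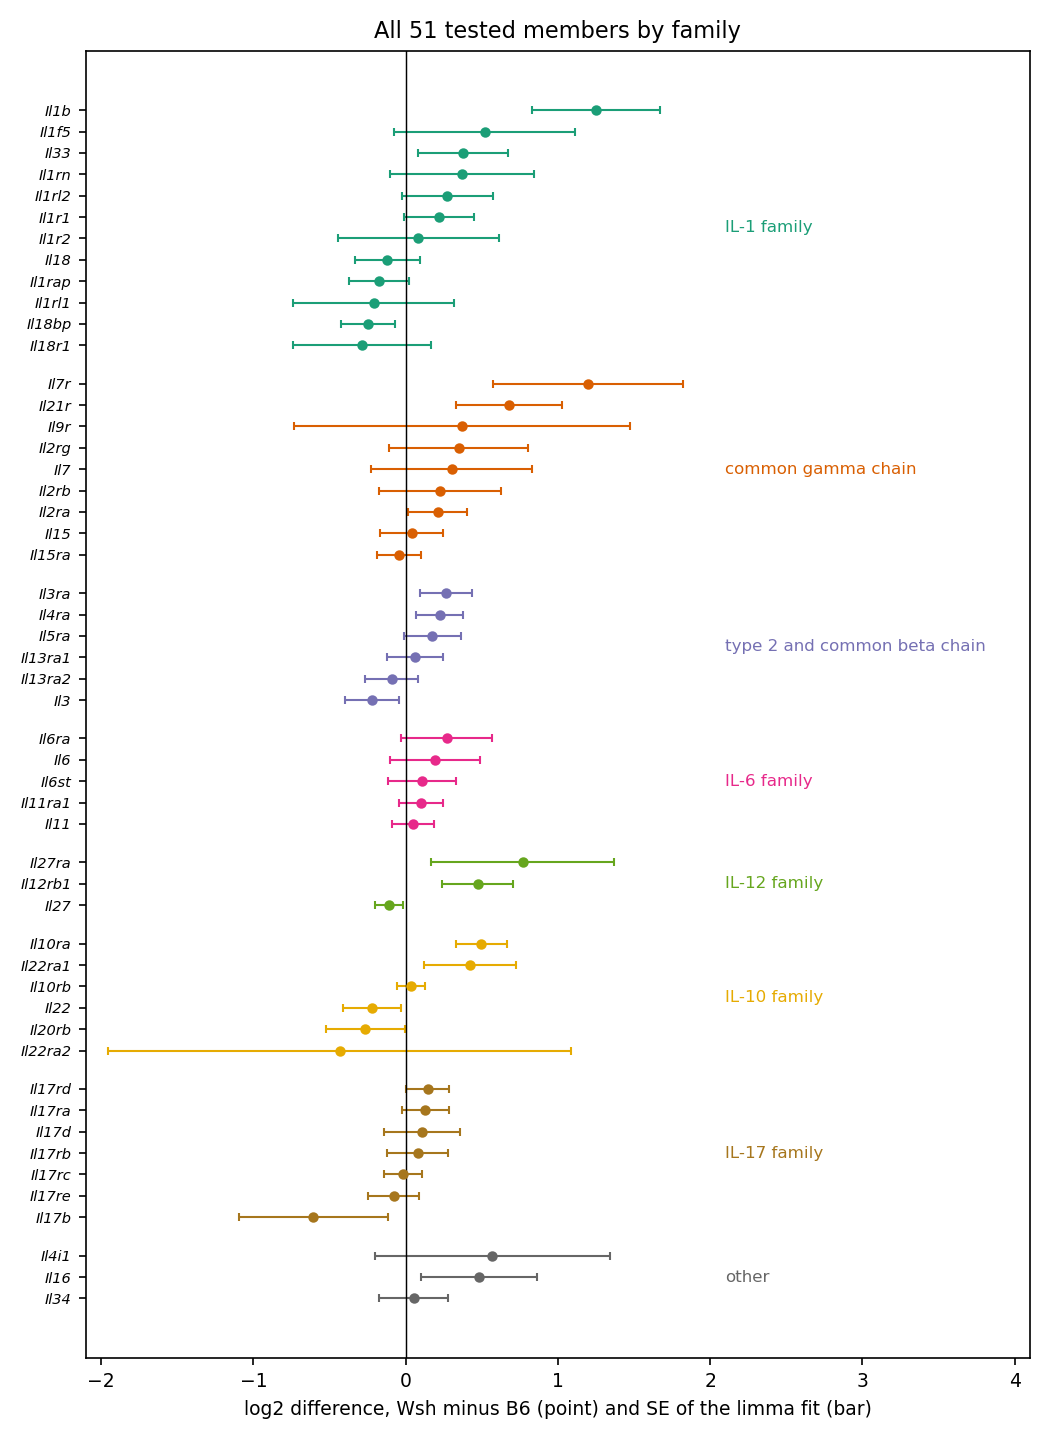
Log2 differences of the 51 tested members, Wsh minus B6 (x axis), with the SE of the limma fit as bars, grouped and coloured by family. Il1b (1.25) and Il7r (1.20) lie farthest to the right, Il17b (-0.61) farthest to the left, and Il22ra2 has the widest bar.

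The interleukin 1 family held 20 members, of which 12 were tested, 7 with differences above 0. Il1b, which encodes interleukin 1 beta, the secreted inflammatory cytokine processed by the inflammasome, had the largest difference of all members. It read -0.68, 0.95, 0.36, -0.41, -0.59, -0.52 and -0.04 on Wsh replicates 1 to 7. On B6 replicates 1 to 8 it read -2.04, -0.49, -0.88, -1.71, 0.07, -1.47, -3.40 and -1.15. All 7 Wsh arrays lay above the B6 median, and 1 B6 array, replicate 5, lay above the Wsh median. The means were -0.13 ± 0.60 (SD, n = 7) in Wsh and -1.38 ± 1.06 (SD, n = 8) in B6, a 2.38-fold difference. On the log2 scale this was 1.25 (SE 0.42, limma adjusted p = 0.275). The difference was 1.33 on slide 1 and 1.10 on slide 2, it was 1.46 without the 5 skeletal muscle arrays, and it ran from 0.96 to 1.46 as each array was left out. Over all settings run its adjusted p was between 0.148 and 0.887.

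Of 3 Il1b probes 2 passed the filter, and their first 30 bases are shown to identify the stretch of transcript each measured. The probe used lies at chr2:129190347-129190406 and the other at chr2:129190880-129190939 (coordinates of the files, build mm9, exon and UTR annotation not used here). Because Il1b had the largest difference, the 250 bases before its start are shown as well, chr2:129371140-129371389 of GRCm38.p6, minus strand, from RefSeq. Capitals in the promoter mark matches of a C/EBP motif, 91 bases before the start, and of a TATA box, 31 bases before it. C/EBP beta is a known activator of Il1b, and a match is a description of the letters only.
Il1b probe used: aggttcctataatatggatgagaattttta
Il1b second probe: ggaaaagcggtttgtcttcaacaagataga
Il1b promoter: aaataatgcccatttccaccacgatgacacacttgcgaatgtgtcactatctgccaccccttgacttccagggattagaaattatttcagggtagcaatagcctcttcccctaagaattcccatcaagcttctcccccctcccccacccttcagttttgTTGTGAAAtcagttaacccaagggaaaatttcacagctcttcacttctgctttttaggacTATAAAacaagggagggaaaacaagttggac
The second probe gave a difference of 0.93 (SE 0.32, limma adjusted p = 0.273 over all kept probes), on the same side as the first.

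The antagonists and receptors of the interleukin 1 group had smaller estimates, and none was called. Il1rn, the receptor antagonist, averaged -2.18 ± 1.26 (SD, n = 7) in Wsh and -2.55 ± 0.66 (SD, n = 8) in B6. That mean rested on Wsh replicate 2, which read 0.49 while the other Wsh arrays lay between -3.41 and -1.99, and without it the difference was -0.07. Il1f5, the interleukin 36 receptor antagonist, read -0.40 on the same array and -5.56 to -3.98 on the other Wsh arrays, against -5.74 to -3.88 on the B6 arrays, and was well above background on 9 of 15 arrays. Wsh replicate 2 also had the highest keratinocyte marker mean (0.86, against -0.37 to 0.48 on the other Wsh arrays and -0.34 to 0.34 on the B6 arrays), from 3 of 5 markers tested, with Ivl above background on no array, and its part in these 2 values was not tested. Il1r1, the signalling receptor, differed by 0.22 (SE 0.23), and the decoy receptor Il1r2 by 0.08 (SE 0.53).

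The alarmin Il33, released by damaged epithelium and stroma, ran from 0.42 to 2.62 (median 1.88) in Wsh and from 0.83 to 2.16 (median 1.37) in B6. The groups overlapped over most of their range, and the difference was 0.38 (SE 0.29, limma adjusted p = 0.693), with 0.61 at a second probe. It was 0.52 on slide 1 and 0.13 on slide 2, and 0.08 without the 5 skeletal muscle arrays. Its receptor chain Il1rl1, which is carried by mast cells, group 2 innate lymphoid cells and regulatory T cells, averaged -1.95 ± 0.90 (SD, n = 7) in Wsh and -1.74 ± 1.25 (SD, n = 8) in B6. That difference was -0.21 (SE 0.53, limma adjusted p = 0.925) and took opposite signs on slide 1 (0.26) and slide 2 (-0.79). Il18, another inflammasome-processed cytokine, differed by -0.12 (SE 0.21, limma adjusted p = 0.887). Its soluble binding protein Il18bp differed by -0.25 (SE 0.17, limma adjusted p = 0.657), with -0.34 at a second probe. Wsh replicate 1 was alone among the Wsh arrays with Il18 above 0, at 0.88.

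**Figure D2:**
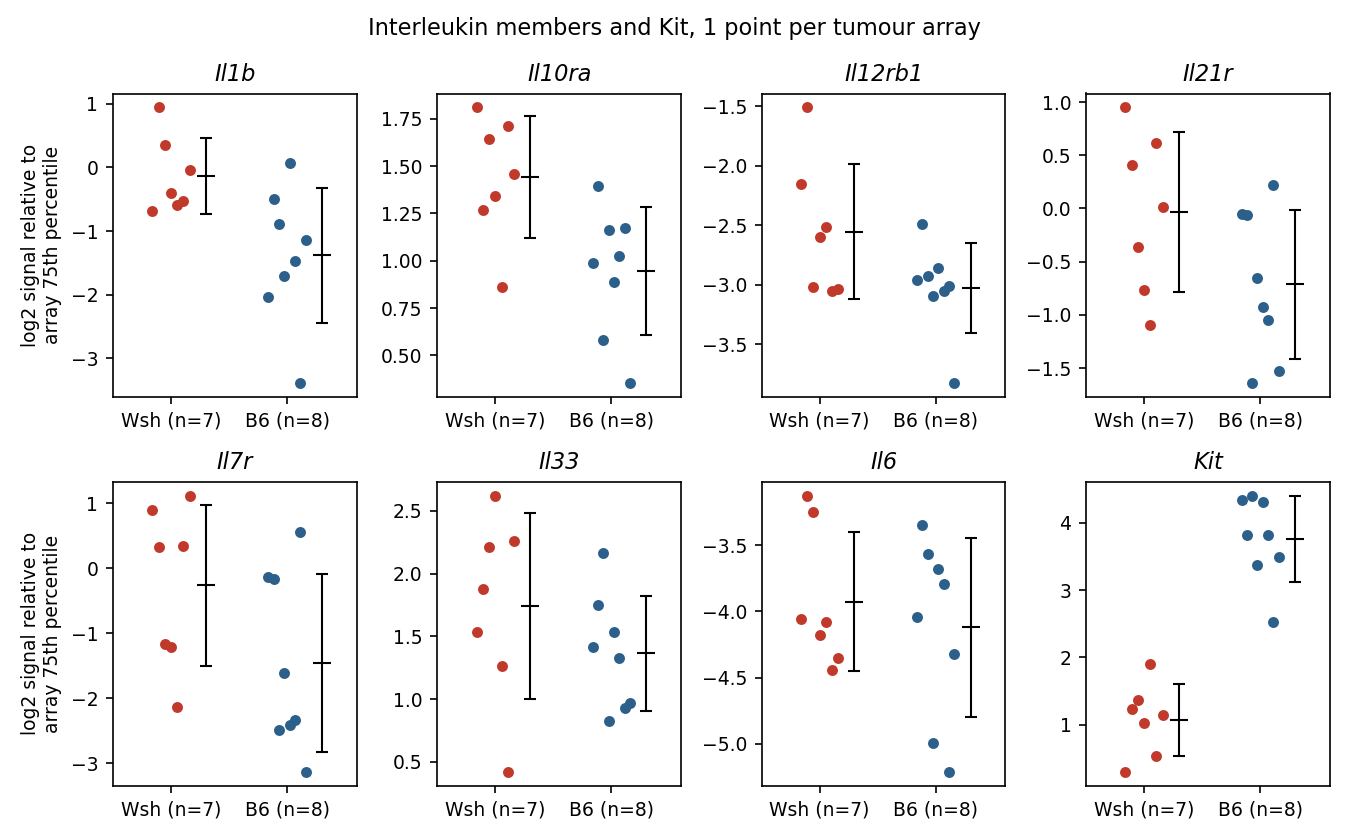
Log2 signal relative to the array's 75th percentile (y axis) of 7 members and Kit, 1 point per tumour array, 7 Wsh at left and 8 B6 at right, with mean and SD as bars. Il1b and Il10ra are shifted upward in Wsh with overlap, Il6 and Il33 overlap over most of their range, and Kit does not overlap.

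In the family that shares the common gamma chain, 9 of 12 members were tested and 8 lay above 0 (median 0.30). Il7r, the interleukin 7 receptor chain of naive and memory T cells, read 0.90, 0.32, -1.17, -1.21, -2.13, 0.34 and 1.11 on the Wsh arrays. On the B6 arrays it read -0.13, -0.16, -2.49, -1.61, -2.41, -2.33, 0.56 and -3.13. Both groups held high and low tumours, and the difference of 1.20 (SE 0.63, limma adjusted p = 0.520) was within that spread. Il21r, the interleukin 21 receptor of lymphocytes, differed by 0.68 (SE 0.35, limma adjusted p = 0.511), with 6 of 7 Wsh arrays above the B6 median, but a second probe gave -0.09. Il2ra, the high-affinity interleukin 2 receptor chain of regulatory and activated T cells, differed by 0.21 (SE 0.19, limma adjusted p = 0.743), and Il9r, above background on 10 of 15 arrays, by 0.37 (SE 1.10). Il9r ran from 0.001 (without Wsh replicate 6) to 0.98 as each array was left out. Il2rg, Il2rb and Il15, named here after their values were seen, differed by 0.35 (SE 0.46), 0.23 (SE 0.40) and 0.04 (SE 0.21).

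The interleukin 10 family had 6 of 11 members tested, 3 on each side of 0 (median -0.09). Il10ra, the ligand-binding chain of the interleukin 10 receptor on leukocytes, had the lowest adjusted p of the set. It read 1.81, 1.27, 1.64, 1.34, 0.86, 1.71 and 1.46 on the Wsh arrays and 0.99, 1.40, 0.58, 1.16, 0.89, 1.03, 1.17 and 0.35 on the B6 arrays. No B6 array lay above the Wsh median, and 6 of 7 Wsh arrays lay above the B6 median. The means were 1.44 ± 0.32 (SD, n = 7) in Wsh and 0.95 ± 0.34 (SD, n = 8) in B6, or 1.41-fold. The log2 difference was 0.50 (SE 0.17, limma adjusted p = 0.274), with 0.48 on each slide and 0.59 at a second probe. It was 0.56 without the 5 skeletal muscle arrays. With the T cell marker mean as a covariate the difference was 0.32 (limma adjusted p = 0.344).

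The 2 Il10ra probes are identified by their first 30 bases, because they gave the same direction at separate stretches. The probe used lies at chr9:45061922-45061981 and the second at chr9:45062649-45062708 (mm9).
Il10ra probe used: tcaaatggaaccacaagtgttgtgtgtttt
Il10ra second probe: aaataatgactaggtcattcagaagtccct
The partner chain Il10rb, which is used widely outside leukocytes, differed by 0.03 (SE 0.09). Il22ra1, the epithelial interleukin 22 receptor, differed by 0.42 (SE 0.30, limma adjusted p = 0.665). Il22ra2, the secreted interleukin 22 binding protein, varied most of all members (SD 3.08 over the 15 arrays). It lay between -1.34 and 1.30 on Wsh replicates 1 and 6 and B6 replicates 1, 2, 4 and 7, and between -7.20 and -3.75 on the other 9 arrays. It was well above background on 9 of 15 arrays, so its low values are near the limit of detection.

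In the interleukin 12 family 3 of 8 members were tested. Il12rb1, shared by the receptors of interleukins 12 and 23, averaged -2.56 ± 0.57 (SD, n = 7) in Wsh and -3.03 ± 0.38 (SD, n = 8) in B6 (log2 0.47, SE 0.23, limma adjusted p = 0.488). Wsh replicates 1 and 2, at -2.15 and -1.51, lay above every B6 array, and the other 5 Wsh arrays lay within the B6 range. Il27ra, the interleukin 27 receptor of T cells, had a wider spread, -1.75 to 1.71 in Wsh and -2.57 to 0.88 in B6, with a difference of 0.77 (SE 0.60, limma adjusted p = 0.694). All 5 tested members of the interleukin 6 family lay above 0, but the differences were small, between 0.05 and 0.27. Il6 itself, the acute-phase cytokine, averaged -3.93 ± 0.52 (SD, n = 7) in Wsh and -4.12 ± 0.68 (SD, n = 8) in B6 (limma adjusted p = 0.865), and was well above background on 12 of 15 arrays.

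Receptors of type 2 cytokines and of the common beta chain differed little. Il4ra, shared by the receptors of interleukins 4 and 13, ran from 0.02 to 1.07 in Wsh and from 0.07 to 0.69 in B6, a difference of 0.23 (SE 0.15, limma adjusted p = 0.650). Il3ra differed by 0.27 (SE 0.17, limma adjusted p = 0.622), with 0.04 at a second probe, and the decoy receptor Il13ra2 by -0.09 (SE 0.17, limma adjusted p = 0.898). In the interleukin 17 family 4 of 7 tested members lay above 0, with differences between -0.61 and 0.14. The lowest was Il17b, which was -1.43 (SE 0.30) on slide 1 and 0.35 (SE 0.88) on slide 2, and ran from -1.01 to -0.39 as each array was left out (limma adjusted p = 0.704 over both slides). Of the remaining members, Il16, a chemoattractant that binds CD4, differed by 0.48 (SE 0.38, limma adjusted p = 0.699), with -0.09 and 0.15 at its other probes. Il4i1, an amino acid oxidase of antigen-presenting cells named for its induction by interleukin 4, differed by 0.57 (SE 0.77, limma adjusted p = 0.840), and Il34, the second ligand of the colony stimulating factor 1 receptor, by 0.05 (SE 0.23, limma adjusted p = 0.963).

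Without the 5 skeletal muscle arrays, which leaves 3 Wsh and 7 B6 tumours, no member was called, but several differences moved by more than 1.5 times. Il7r was then 2.03, Il9r 2.26, Il21r 1.07, Il16 0.91, Il4i1 0.93, Il1f5 1.635, Il1rn 1.05 and Il22ra2 1.004. Il1rl1 was -0.53, Il18 -0.25, Il13ra2 -0.27, Il34 -0.11, Il33 0.08 and Il6 0.02. Of the members named after their values were seen, Il2rg was then 0.83 and Il2rb 0.46, and the others are not listed here.

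Most of the ligands could not be tested. Only 14 of 36 ligands passed the filter of 7 arrays well above background, compared with 30 of 37 receptor chains and 6 of 7 inhibitors. Il1a, Il5, Il13 and Il17a were well above background on 0 of 15 arrays. Il10 and Il4 were so on 1 array each, both Wsh, and Il2 and Il9 on 1 each, both B6. The subunits Il12a, Il12b and Il23a reached 6, 5 and 5 arrays, spread over both groups. Of the 31 untested members, 8 were above background on no array, 14 on 1 to 3 arrays and 9 on 4 to 6. No member was above background on every array of one group and none of the other.

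Across tumours, rather than between the groups, a block of lymphocyte receptor genes varied together. Relations with the mean of 8 T cell markers (Cd3d, Cd3e, Cd3g, Cd2, Cd5, Lck, Cd4 and Cd8a) were examined after seeing the data. All 8 markers were above background on all 15 arrays, their mean ran from -1.18 to 1.88 in Wsh and from -1.75 to 1.01 in B6, and their summed linear level from 6.03 to 31.2 in Wsh and from 4.95 to 17.8 in B6. With p-values from 100000 permutations adjusted over the 22307 genes measured under every scaling, 13 of 51 members correlated positively and 2 negatively. The background was 3.59% of all genes positive and 2.51% negative. The count of 15 depended on a few tumours, with 8 called without Wsh replicate 1, 8 without the 2 arrays farthest from the median of the marker mean and 7 without the 5 skeletal muscle arrays. All values of an array share its scaling, and the median r was 0.36 for members and -0.13 for all genes. The B and plasma cell marker mean was 3.48 on Wsh replicate 1, 1.96 on B6 replicate 7, -2.84 on Wsh replicate 5 and -2.41 on B6 replicate 8. On the same arrays the NK cell mean was 0.93, 0.38, -0.25 and -1.30, and the T cell mean 1.88, 1.01, -1.18 and -1.75. Relations of members with the B and NK cell means were not tested, and T, B and NK cell content cannot be told apart here.

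Il2rg followed the T cell markers most closely, with r = 0.97 and rho = 0.95 over 15 arrays (permutation p = 1e-05, the smallest they can give, adjusted p = 0.00105). Within the 7 Wsh arrays r was 0.99 and within the 8 B6 arrays 0.98, and without the 2 arrays farthest from the median of the marker mean it was 0.95. Il27ra (r = 0.96), Il21r (0.96), Il16 (0.96), Il7r (0.95), Il2rb (0.93) and Il4i1 (0.92) were next, each with an adjusted p of at most 0.00174, rho of at least 0.90 and r between 0.88 and 0.98 within either group. Il2rb is the signalling chain of the interleukin 2 and 15 receptors on T and NK cells. Each r rests on the 1 probe that stood for the gene, and r at other probes was not computed. Between the groups, other probes did not repeat the difference of the probe used for Il21r (-0.09 against 0.68) and Il16 (-0.09 and 0.15 against 0.48). Il10ra (r = 0.80, adjusted p = 0.0124), Il6ra (0.79, 0.0201) and Il17ra (0.77, 0.0138) followed less closely. For Il1r1 (0.71) and Il3ra (0.71) the relation rested on the 2 farthest arrays, without which r was 0.49 and 0.44. Il22ra2 was also called, but its values fall into separate clusters, so no pooled r is given.

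Il17re, an epithelial chain of the interleukin 17C receptor, and Il1rap, the accessory chain of interleukin 1 receptors, ran the other way. Il17re had r = -0.78 (rho = -0.78, permutation adjusted p = 0.0107), and read lowest on Wsh replicate 1 (2.37) and B6 replicate 7 (2.48), 2 arrays high in T cell markers. Il1rap had r = -0.74 (permutation adjusted p = 0.0263) and rho = -0.69 (permutation adjusted p = 0.0825). Without the 2 arrays farthest from the median of the marker mean its r was -0.57. Over all arrays Il1b had r = -0.07 with the mean of T cells, -0.08 with macrophages and 0.02 with neutrophils, none of them called. Within Wsh these were -0.13, 0.02 and 0.16, and within B6 -0.48, -0.49 and -0.61. Its difference between the groups was 1.45 with the T cell mean as a covariate, 1.47 with the macrophage mean and 1.30 with the neutrophil mean (the lowest limma adjusted p of the 3 was 0.185). The differences of Il27ra and Il16 were -0.01 and -0.004 with the T cell mean as a covariate, and that of Il7r was 0.40. Il27ra, Il16 and Il7r follow that mean closely (r = 0.96, 0.96 and 0.95) and Il1b does not, so the covariate acts on them unequally. Whether cell content accounts for any of these differences was not tested. Members that followed the T cell mean did not all move towards 0. With the same covariate Il2rg was -0.25, Il4i1 -0.40 and Il22ra2 -2.40 (limma adjusted p = 0.0708 for Il22ra2). Without the covariate they were 0.35, 0.57 and -0.43. The low values of Il22ra2 are near the limit of detection.

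**Figure D3:**
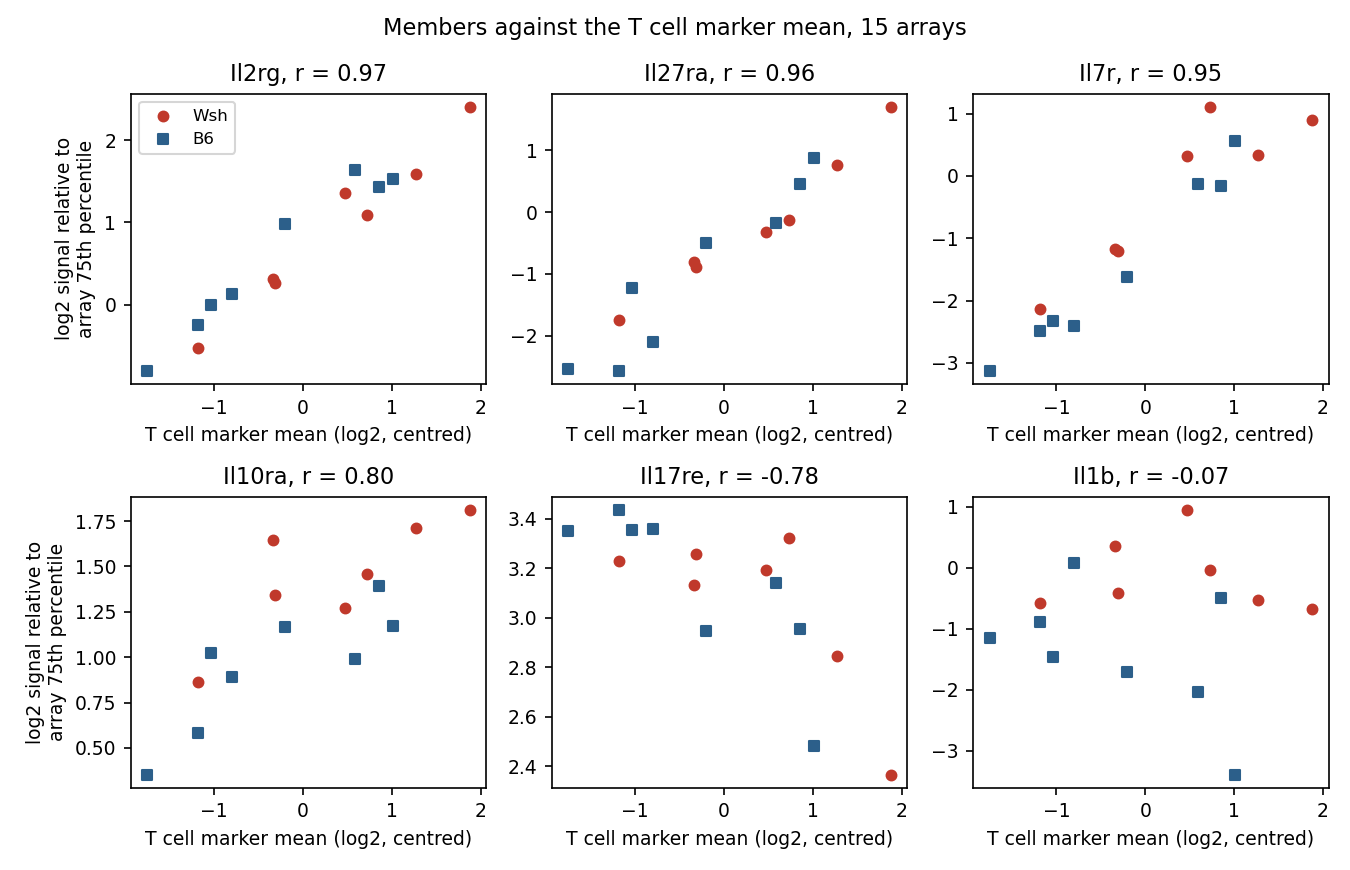
Log2 signal of 6 members (y axis) against the T cell marker mean (x axis, centred log2) on 15 arrays, Wsh as circles and B6 as squares, with Pearson r over all arrays. Il2rg, Il27ra and Il7r lie along a rising line in both groups, Il17re along a falling one, and Il1b (r = -0.07) along none.

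**Figure D4:**
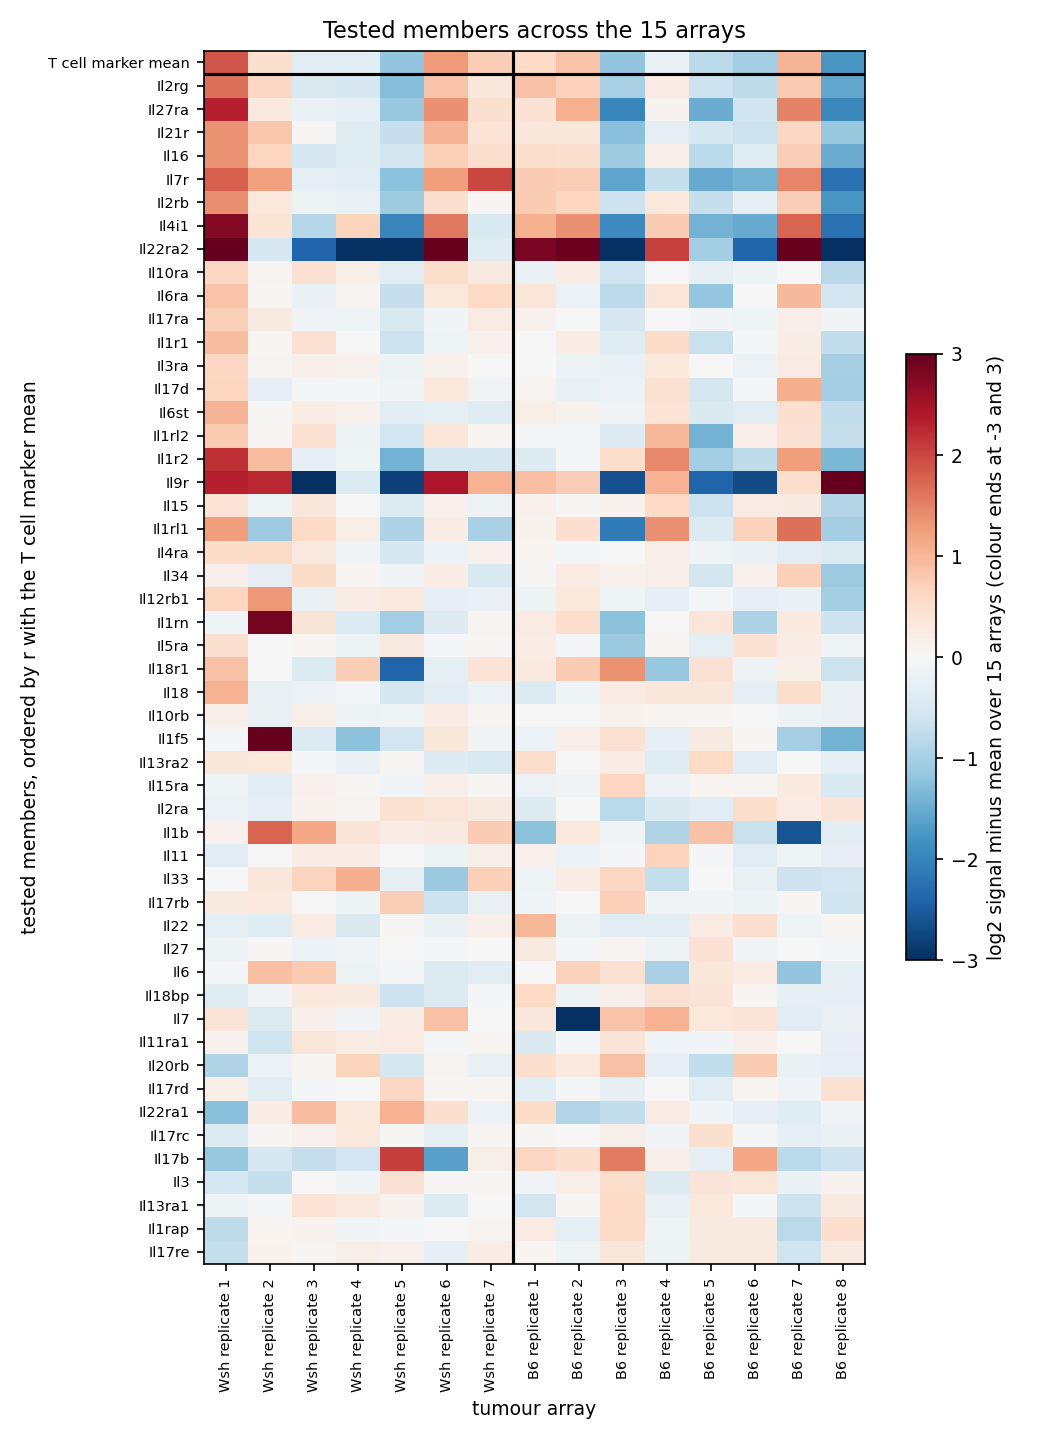
Log2 signal of each tested member minus its mean over the 15 arrays (colour, ends at -3 and 3), Wsh arrays left of the line and B6 arrays right of it, members ordered from the highest to the lowest r with the T cell marker mean in the top row. The upper rows, from Il2rg to Il22ra2, are high on Wsh replicates 1 and 6 and B6 replicates 2 and 7 and low on Wsh replicate 5 and B6 replicates 3 and 8.

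Calls with the macrophage and neutrophil means overlapped those with the T cell mean. With the macrophage mean (8 of 8 markers tested, mean -0.19 to 0.78 in Wsh and -0.98 to 0.72 in B6) 16 of 51 members were called, 14 of them positive, where 13.8% of all genes were called. Il1r1 (r = 0.83, rho = 0.85, permutation adjusted p = 0.00853) led, followed by Il3ra (0.79), the interleukin 36 receptor Il1rl2 (0.78) and Il1rl1 (0.76). Of the 16, 11 were also called with the T cell mean (68.8% of these and 73.3% of the T cell calls), Il1r1 and Il3ra among them, and Il1rl1, Il1rl2, Il3, Il5ra and Il6st were not. With the neutrophil mean (5 of 7 markers tested, -1.48 to 2.01 in Wsh and -1.02 to 0.63 in B6) 4 members were called, where 1.04% of all genes were. These were Il17ra (r = 0.85), Il21r (0.82), Il16 (0.82) and Il2rg (0.82), each with a permutation adjusted p of 0.0449, and all 4 were also called with the T cell mean.

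Promoters are shown for 3 of the receptor genes that varied together, to set their letters beside that of Il1b above. They are the 250 bases before each start from RefSeq (GRCm38.p6): Il7r at chr15:9529877-9530126 (minus strand), Il21r at chr7:125603179-125603428 (plus strand) and Il2rg at chrX:101268256-101268505 (minus strand). Capitals mark matches of an ETS motif (AGGAAG or its reverse complement) in Il7r, 48 bases before the start, and in Il2rg, 199 before it, and of the C/EBP motif (TTNNGNAA) in Il7r, 174 before it. ETS factors act at many lymphocyte genes. Il21r had no match of the 6 motifs searched on both strands, which says only that these letters are not in this window.
Il7r promoter: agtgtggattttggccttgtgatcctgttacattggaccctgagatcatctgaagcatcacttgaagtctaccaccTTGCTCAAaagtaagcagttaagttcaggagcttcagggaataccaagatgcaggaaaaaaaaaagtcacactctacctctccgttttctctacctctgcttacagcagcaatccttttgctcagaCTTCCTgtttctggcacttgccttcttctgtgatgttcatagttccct
Il21r promoter: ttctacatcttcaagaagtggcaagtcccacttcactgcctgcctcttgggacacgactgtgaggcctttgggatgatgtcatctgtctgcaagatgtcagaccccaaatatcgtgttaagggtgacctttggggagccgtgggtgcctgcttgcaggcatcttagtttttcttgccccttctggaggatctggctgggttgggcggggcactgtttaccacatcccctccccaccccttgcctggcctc
Il2rg promoter: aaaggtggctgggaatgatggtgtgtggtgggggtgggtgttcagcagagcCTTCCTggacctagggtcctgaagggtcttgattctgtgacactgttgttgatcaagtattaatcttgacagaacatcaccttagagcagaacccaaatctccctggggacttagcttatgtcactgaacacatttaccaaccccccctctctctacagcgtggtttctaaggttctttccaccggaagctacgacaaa
The ETS motif was in 29.5% and the C/EBP motif in 36.9% of 32841 promoters of this length, so matches are common by letters alone. Of the members 65 had a promoter in the table, 80 promoters in all, and 33.8% of these held the ETS motif and 46.3% the C/EBP motif. The TATA box (TATAAA) was in 12.4% of all promoters and 16.3% of member promoters, the AP-1 motif (TGANTCA) in 6.75% and 17.5%, the NF-kB motif in 4.65% and 11.3%, and the interferon-stimulated response element in 2.98% and 2.50%. Each motif was searched by itself, so matches can overlap, and no binding of a factor was measured.

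Ligands were set against their own receptor chains over the 15 arrays in 13 pairs in which both were measured. Il15 and Il2rb were the only pair called (r = 0.74, permutation p = 0.00163, adjusted over the 13 pairs p = 0.0212). The rank correlation was lower (rho = 0.64, adjusted p = 0.162), and without the 2 arrays farthest from the median of Il15, both B6, r was 0.51 (permutation p = 0.0755), so the call over all 15 arrays rests on them. It was 0.25 on slide 1 and 0.87 on slide 2, and 0.73 within Wsh and 0.76 within B6. Il34 and Csf1r had r = 0.57 (adjusted p = 0.192), Il6 and Il6ra -0.52 (0.216), Il18 and Il18r1 0.43 (0.322), and Il33 and Il1rl1 -0.35 (0.395), all by permutation. For Il1b the values were -0.09 with Il1r1 and -0.21 with Il1r2.

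Downstream of these receptors 45 of 47 listed genes of interleukin signalling were tested, and 0 passed over all genes. At an unadjusted p below 0.05 there were 9 (20.0%, background 10.7%), 4 higher and 5 lower in Wsh. Osm, oncostatin M, a cytokine of the interleukin 6 group made by macrophages and neutrophils, ran from -3.46 to -1.73 (median -2.43) in Wsh and from -4.24 to -3.14 (median -3.36) in B6. No B6 array lay above the Wsh median, and the difference was 0.95 (SE 0.26, limma adjusted p = 0.165). Aim2, a DNA sensor whose inflammasome activates interleukin 1 beta, differed by 0.89 (SE 0.27, limma adjusted p = 0.214), while Pycard, the adaptor of the same inflammasome, differed by -0.36 (SE 0.12, limma adjusted p = 0.246). The Pycard difference was -0.66 on slide 1 and -0.02 on slide 2. Irak1, a kinase of interleukin 1 receptor signalling, had -0.26 (SE 0.08, limma adjusted p = 0.242), Jak2 -0.24 (SE 0.09, limma adjusted p = 0.340) and the cytokine Clcf1 0.51 (SE 0.18, limma adjusted p = 0.299). Of the 9 interleukin 1 receptor signalling genes 6 lay below 0 (median -0.07), and of 7 STAT factors 4 did (median -0.01).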

How the data were processed

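Total RNA of each tumour was amplified with a Cy3 label and hybridised to 1-colour Agilent arrays, per the labels' protocols. The spot intensity values were deposited as written by Agilent Feature Extraction 10.7.3.1, background-subtracted and detrended but not normalized between arrays, per the file headers. A log2 table made by the authors from these arrays was deposited too, with no normalization named in the sources used here. Each column had a rank correlation of 1 with the median spot signal minus the median local background of its own array. Its medians lay between 8.605 and 8.608 on all arrays, so the arrays share a centre, by a method that is not known. The table served as an alternative.

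Outlier-flagged spots were left out, and spots of a probe were averaged. Each array's log2 processed intensity was taken relative to its 75th percentile over probes, which lay between 2488 and 3278 in Wsh and between 2322 and 4470 in B6. The filter asked for 7 or more of the 15 arrays well above background (34349 probes), and the brightest such probe on average stood for its gene (22344 genes). Between 55.7% and 73.4% of spots were well above background, the number of arrays limits the precision, and arrays correlated between 0.926 and 0.990. Probes were named through RefSeq (GRCm38.p6). Of the tested members 22 had several kept probes, and in 16 all lay on the same side of 0. The test between groups was limma 3.58.1 (R 4.3.3, two-sided, Benjamini-Hochberg over all genes, threshold 0.05). Correlations used permutations in Python 3.11.15 with numpy 2.4.6, exact where a subset had 8 arrays or fewer. The steps were tested on simulated data. Alternatives were normexp background correction (offset 50), quantile and median scaling, the deposited values, no filter or a filter on all 15 arrays, the mean of probes, slide and replicate blocks, each slide, array weights, leukocyte covariates and each array left out.

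Same-numbered Wsh and B6 arrays deviated together with correlations between -0.24 and 0.21. Differently numbered arrays were not compared in this way, so the check cannot exclude that the numbers pair the samples. The main test treated the samples as unpaired, with the replicate block as an alternative. The text names the 12 members of largest moderated t, the 6 of largest SD, a fixed list of interleukin 1, 6, 10, 18, 33, 34, 2, 4, 7 and 13 system genes, and the 6 signalling genes of largest moderated t. Other members named were chosen after their values were seen. The members and lists were chosen with earlier results of these data known.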

Additional observations from a re-analysis of the deposited data

Results flagged for a closer look

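In 7 of 60 groups of values screened, 1 array stood apart from its group by the size of its gap to the next array, where chance alone would flag about 1 in 20. Of the Wsh arrays, replicate 1 had Il3ra at 1.61 (others 0.84 to 1.15) and Il18 at 0.88 (others -0.67 to -0.22). Wsh replicate 2 had Il1f5 at -0.40 (others -5.56 to -3.98) and Il1rn at 0.49 (others -3.41 to -1.99). Of the B6 arrays, replicate 8 had Il12rb1 at -3.83 (others -3.10 to -2.49) and Il3ra at -0.025 (others 0.75 to 1.30), and it also had the lowest T cell marker mean, -1.75. B6 replicate 3 had Clcf1 at -3.63 (others -2.96 to -2.39).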

How the results depend on the processing

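The count of members called was 0 under every setting, and 678 of 709 values of named members under other settings kept their direction. The median difference of the members, 0.13, ran from 0.08 to 0.19 as each array was left out. It was 0.05 with median scaling, 0.004 with the T cell covariate and 0.0006 with the macrophage covariate. The spread of the member median between arrays of a group was 0.22 (SD), which is not the error of a difference between group means. Members at an unadjusted p below 0.05 numbered 2, against 0 on slide 2 alone, 4 with the replicate block, 4 with the T cell covariate, 4 without the skeletal muscle arrays, and 2 to 6 with an array left out (6 without Wsh replicate 5). Genes called numbered 85, against 48 with median scaling, 25 with no filter, 2 on slide 1, 1 on slide 2, 15 with the replicate block, 189 with array weights, 36 with the T cell covariate, 43 with the neutrophil covariate, 27 without the skeletal muscle arrays and 26 (without Wsh replicate 4) to 101 (without B6 replicate 7) with an array left out. Kit missed the threshold within a slide, with fewer arrays (slide 1 -2.997, adjusted p = 0.0553, slide 2 -2.33, adjusted p = 0.382), and ran from -2.86 to -2.55 with an array left out.

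The 1 pair called became 0 with median scaling, rank correlation, without the 2 farthest arrays, within either slide and within either group, and ran from 0 to 1 with an array left out. Members called with the T cell mean numbered 15, against 8 without the 2 farthest arrays, 1 on slide 1, 0 on slide 2, 0 in B6 alone, 0 in Wsh alone, 7 without the skeletal muscle arrays, and 8 (without Wsh replicate 1) to 16 with an array left out. These sets hold fewer arrays.

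Opposite signs, none of them called, appeared for Il34 with median scaling (-0.024), the mean of probes (-0.10), slide 1 (-0.018), the replicate block (-0.10), the T cell (-0.085) and macrophage (-0.086) covariates, and without the skeletal muscle arrays (-0.11). On slide 1 they appeared for Il18 (0.13), Il1rl1 (0.26) and Il13ra2 (0.016), and on slide 2 for Il22ra2 (0.79), Il1rn (-0.22) and Il6 (-0.041). They appeared with array weights for Il9r (-0.33) and Il1f5 (-0.075), with the T cell covariate for Il27ra (-0.0094), Il16 (-0.0039), Il9r (-0.43) and Il4i1 (-0.40), with the macrophage covariate for Il4i1 (-0.14), with the neutrophil covariate for Il9r (-0.30), and without the skeletal muscle arrays for Il22ra2 (1.004). With an array left out Il34 ran from -0.10 to 0.16, Il22ra2 from -1.25 to 0.12, Il1f5 from -0.090 to 0.77, Il1rn from -0.074 to 0.58 and Il1rl1 from -0.52 to 0.011. The cause of these changes was not tested.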

Other observations

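In 2 members outside the rule for named genes, chosen after their values were seen, 1 tumour lay far from the rest. Il7, the survival cytokine of lymphocytes, read -7.26 on B6 replicate 2 and between -4.14 and -2.67 on the other 14 arrays. It was well above background on 7 of 7 Wsh and 6 of 8 B6 arrays, and its SD over the 15 arrays was 1.07 with the processed signal and 0.40 with normexp correction, so the size of that low value depends on the background step. Il18r1, the interleukin 18 receptor chain, read -3.94 on Wsh replicate 5, where the other Wsh arrays lay between -1.94 and -0.66 and the B6 arrays between -2.66 and -0.18.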
